A study of Mus musculus with 48 samples.

Results

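Potassium channel subunits were described as a gene family across 48 hippocampal RNA-seq libraries. Members were the genes of the deposited count matrix whose symbols start with Kcn. Of 98 such names, 2 choroid plexus genes and 4 antisense genes were left out, which gave 92 listed subunits. Of these, 80 had 10 or more counts in at least 24 libraries and are reported, which is 0.328% of the 24421 genes listed. The other 12, among them Kcna7, Kcna10, Kcnj1 and Kcnn4, stayed below that level.

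The study asked how losing the cannabinoid receptor CB1 from one neuron type changes the transcriptome of the mouse hippocampal Cornus Ammonis (CA), dissected after removal of the dentate gyrus. Glu-CB1-KO mice carried floxed CB1 alleles (CB1f/f) and nex-Cre, which deletes CB1 in glutamatergic neurons of the dorsal telencephalon, and GABA-CB1-KO mice carried CB1f/f and dlx5/6-Cre, which deletes it in forebrain GABAergic neurons. CB1-WT littermates of each line served as controls, and all mice were males labelled as 8 weeks old. Mice came from the home cage (basal state) or had explored an open field for 5 min, with tissue taken about an hour later, and the study chose mice for sequencing partly on their behaviour and neuronal activity.

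The Glu-CB1 line gave 5 CB1-WT and 7 KO libraries in the basal state and again 5 and 7 after open field exposure. The GABA-CB1 line gave 6 CB1-WT and 6 KO basal libraries, and 7 CB1-WT and 5 KO open field libraries. The text of the study gives the sizes of these last groups in reverse order, and the labels were followed here. Each library came from bulk tissue, in which fewer cells of a type and less RNA per cell cannot be told apart.

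Potassium channels let potassium leave the cell and so bring the membrane back towards rest. Voltage-gated (Kv) subunits form tetramers that shape the action potential and its repetition, calcium-activated channels follow bursts with a hyperpolarisation, and inward rectifier and tandem-pore (K2P) channels set the resting potential. CB1 is a Gi/o-coupled receptor whose activation is known to open G protein-gated inward rectifiers (GIRK channels) and to modulate A-type potassium currents in hippocampal neurons.

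Library totals ran from 25892654 to 34091080 counts, with a median of 30975561. Levels are given as CPM, that is, counts scaled to a common library size with TMM factors, and a gene was called a differentially expressed gene (DEG) at an adjusted p under 0.05 over all genes tested. Cnr1, which encodes CB1, averaged 379 CPM in Glu-CB1-WT and 228 in Glu-CB1-KO mice in the basal state, and 365 and 221 CPM after open field exposure. Among GABA-CB1 mice it averaged 349 CPM in CB1-WT and 149 in KO mice in the basal state, and 370 and 135 CPM after open field exposure. Cnr1 was a DEG in each of these 4 comparisons. The summed level of 8 CA1 pyramidal markers was 779 to 1134 CPM over the libraries and that of 8 dentate granule cell markers was 135 to 360 CPM. The summed level of 8 choroid plexus markers stood above that of the rest in 4 libraries, with 636 CPM in Glu-CB1-KO basal replicate 6, 286 in Glu-CB1-KO open field replicate 4, 1518 in GABA-CB1-WT basal replicate 3 and 4075 in GABA-CB1-KO open field replicate 4.

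Several auxiliary subunits were among the most abundant members when levels were set per kb of exon, the only scale on which genes are compared with each other here. Kcnab2, a Kv beta subunit that binds the cytoplasmic side of Kv1 channels, was the most abundant member at 221 CPM per kb. Kcnip2, a KChIP protein that binds Kv4 channels, reached 94.5 CPM per kb, and Kcnab1, a second Kv beta subunit, 58.8 CPM per kb. Kcnd2, the main dendritic A-type (Kv4) pore subunit of pyramidal neurons, was at 42.2 CPM per kb. Slightly lower levels were found for the GIRK subunit Kcnj3 (41.6 CPM per kb), the glial inward rectifier Kcnj10 (39.7), the BK channel beta subunit Kcnmb4 (35.2) and Kcnn2 (34.7), a small-conductance calcium-activated (SK) channel. Kcnab2 alone held 16.9% of the summed level per kb of all 80 members.

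By class, the 3 Kv beta subunits held 22.4% of the summed level per kb and the 4 KChIPs 11.2%. The calcium- and sodium-activated channels (BK, SK and Slack, 10 members) held 8.79%, the inward rectifiers other than GIRK 6.55%, the Kv1 subunits 6.27% and the GIRK subunits 5.46%. The K2P channels held 5.05%, the Kv4 subunits 4.99%, the silent Kv subunits 4.65% and the EAG, ERG and ELK channels 3.23%. The KCNE subunits held 0.224%. Shares of the other pore-forming Kv classes are not reported here, so these values give no ranking of all classes. The Kv1 and Kv4 pore subunits were thus each below the Kv beta class on this scale.

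The most abundant members of other classes were Kcna1 (Kv1, which sets axonal excitability; 32.3 CPM per kb), Kcnh3 (22.01), the silent modifier Kcnf1 (15.3), the K2P channel Kcnk1 (28.4) and Kcne1l (2.19). Kcnrg, a regulator of Kv channel assembly, was at 0.421 CPM per kb. In all, 35 members were at 10 CPM per kb or above and 15 were below 1 CPM per kb, down to the GIRK subunit Kcnj5 at 0.0832. At this low end, Kcnq1 and the non-coding Kcnq1ot1 share exon sequence on opposite strands, at 0.395 and 19.5 CPM, so that the level of Kcnq1 is uncertain. Kcnn2, Kcnh3 and Kcnmb4 also share exon bases with a gene on the other strand, and whether the library kit kept strand is not given in the sources used here.

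**Figure D1:**
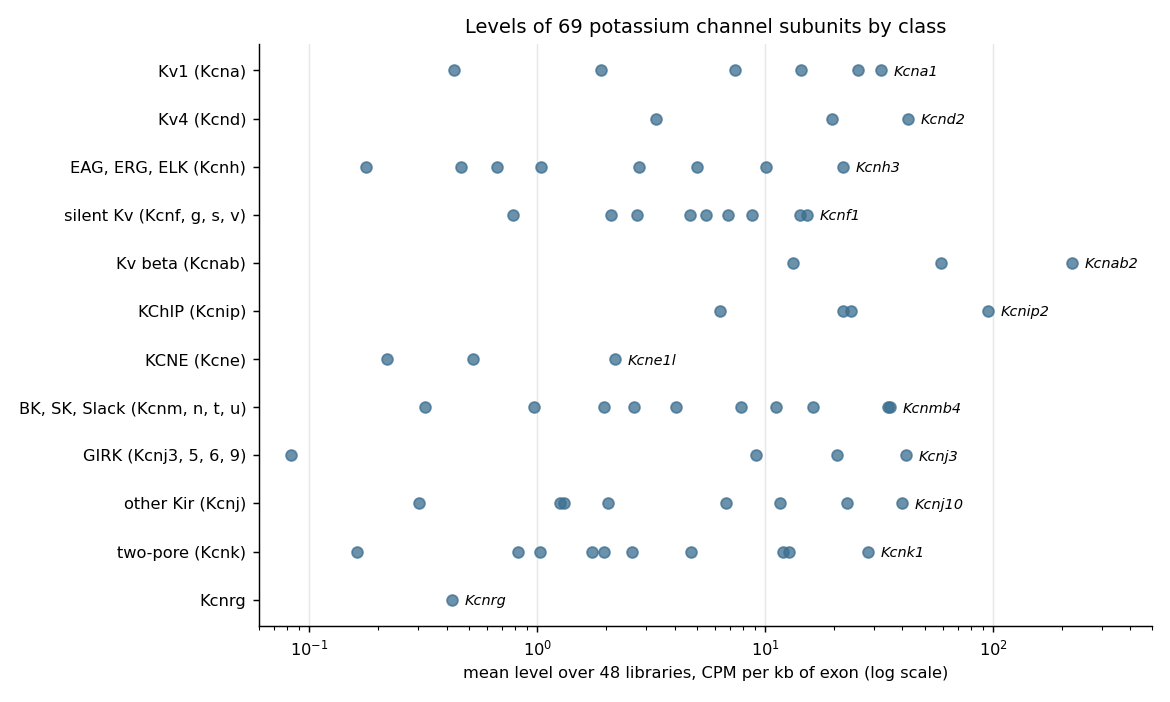
Mean level over 48 libraries of 69 of the 80 reported subunits in CPM per kb of exon (log scale), one point a gene, in rows for 12 channel classes, with the most abundant member of each row named. Kcnab2 lies farthest to the right at 221 CPM per kb and Kcnj5 farthest to the left at 0.0832.

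Group means were close to each other for most subunits. For 73 of 80 members the highest of the 8 group means was within 1.5-fold of the lowest, with a median ratio of 1.17. The median within-group SD on the log2 scale was 0.157 over the members and 0.114 over 15570 genes tested. The members thus varied somewhat more between mice of one group than the median gene did.

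Some members varied with a split between libraries that crossed the groups. Xkr4, a gene chosen after its values had been seen because it separates the libraries, was between 3.22 and 5.51 CPM in 14 libraries and between 8.74 and 39.3 CPM in the other 34. The 14 low-Xkr4 libraries comprised 3 of 7 Glu-CB1-KO and 2 of 5 Glu-CB1-WT basal, 2 of 7 Glu-CB1-KO and 2 of 5 Glu-CB1-WT open field, and 2 of 6 GABA-CB1-WT basal libraries, with 1 library in each remaining group. Each label ends in a number whose meaning is not given, and these numbers were grouped here into 3 ranges for each line. All 14 low-Xkr4 libraries were among the 24 in the lowest range of each line, and 0 were among the 24 in the other ranges. The Xkr4 split and the number range therefore cannot be treated as separate. Of the 80 members, 9 had a correlation over 0.8 with Xkr4 over the 48 libraries (log2 deviations from the group means), or 11.25% against 3.01% of all genes tested. The points of such a correlation share library and depth, so it is given only as a description.

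These 9 members, named here from their values, came from several channel classes. Kcnh7, an ERG-type channel, had the highest correlation (r = 0.975, n = 48). Its level was 1.29 to 2.88 CPM with a median of 1.74 in the low-Xkr4 libraries, and 4.03 to 22.3 CPM with a median of 14.9 in the other 34, with no overlap. The median was thus 8.53-fold higher outside the low-Xkr4 libraries. Kcnq3, a subunit of the M-type channel that restrains repetitive firing, had a median of 27.2 CPM (18.2 to 39.6) in the low-Xkr4 libraries and 60.5 CPM (40.1 to 70.0) in the others. Kcnma1, the BK channel pore, had medians of 84.4 CPM (67.7 to 104) and 144 CPM (121 to 165). For both genes the low-Xkr4 libraries lay below all the others.

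The ratios of medians were 2.46 for Kcnh5, 2.01 for Kcna3 and Kcng3, 1.57 for Kcnb2, 1.33 for the GIRK subunit Kcnj6 and 1.29 for the sodium-activated channel Kcnt2. In contrast, Kcnab2 was level across the split (r = 0.131), with medians of 824 and 845 CPM. The 9 members had a median GC content of 45.2% and a median genomic span of 291 kb, against 53.3% and 32.9 kb for the other 71. Their median exon lengths were 3957 and 3583 bases. The part of the number range, or of what goes with it, in this split was not tested. Each call below is therefore also given without these 14 libraries.

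**Figure D2:**
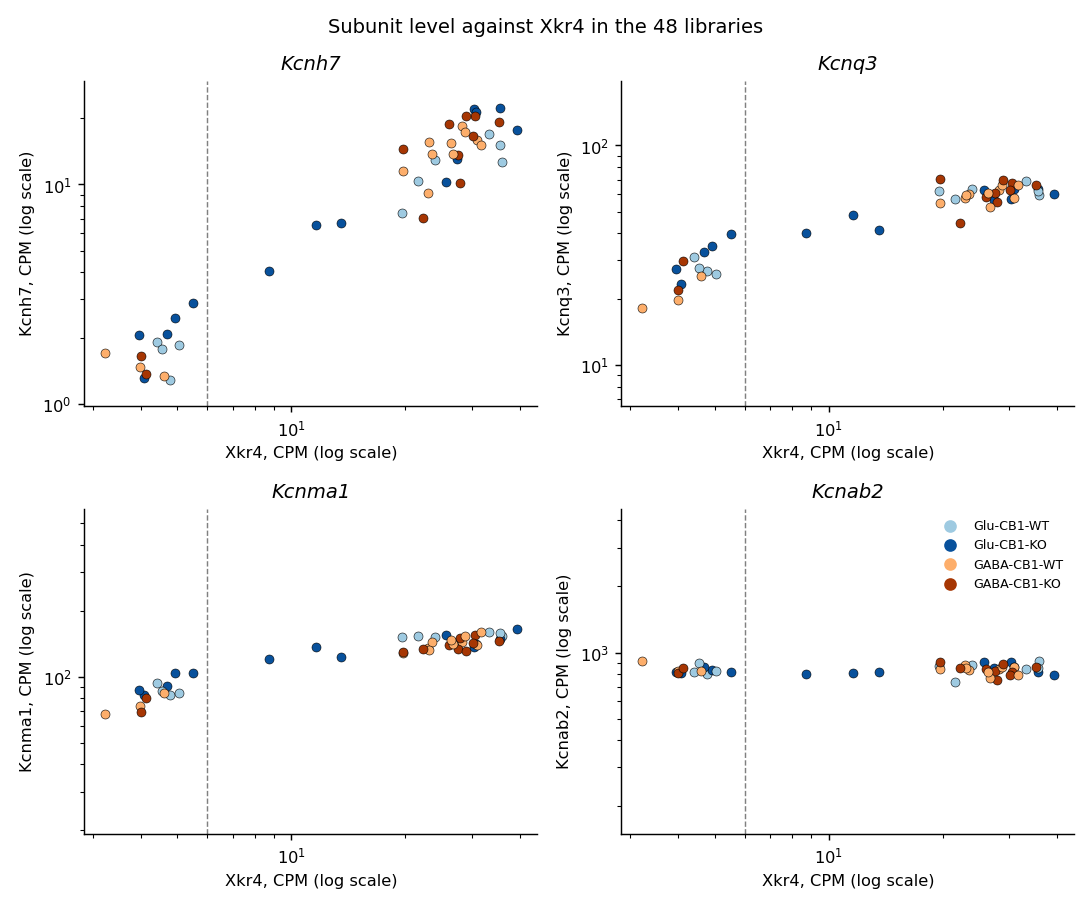
Level of Kcnh7, Kcnq3, Kcnma1 and Kcnab2 against Xkr4 in the 48 libraries, both in CPM on log scales, coloured by line and genotype, with a dashed line at 6 CPM of Xkr4. Kcnh7, Kcnq3 and Kcnma1 are lower in the 14 libraries left of the line, with all genotypes on both sides, whereas Kcnab2 stays near 837 CPM.

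CB1 deletion was followed by small differences in few subunits. For basal Glu-CB1 mice, 0 of 80 members were DEGs, against 0.0198% of all 15138 genes tested. DESeq2 also called 0 members, against 0.0842% of the genes to which it gave an adjusted p. An unadjusted p under 0.05 was found for 2 members, or 2.5% against 3.57% of all genes. After open field exposure of this line, 1 of 80 members (Kcns2) was a DEG, against 0.272% of all genes, whereas DESeq2 called 4 (Kcns2, Kcnn2, Kcnip3 and Kcnc4), against 0.816%, and 9 members had an unadjusted p under 0.05, or 11.25% against 6.97%. For basal GABA-CB1 mice, 1 of 80 members (Kcnip3) was a DEG, against 0.245% of all genes, and 9 had an unadjusted p under 0.05, or 11.25% against 8.16%. In the open field state of the GABA-CB1 line, 0 of 79 members were DEGs, against 0.0199% of all genes, whereas DESeq2 called 3 (Kcns3, Kcnn2 and Kcna2), against 1.59% of the genes to which it gave an adjusted p, and 10 had an unadjusted p under 0.05, or 12.7% against 13.2%. The share of members with an unadjusted p under 0.05 was thus above that of all genes in the Glu-CB1 open field and GABA-CB1 basal comparisons and below it in the other 2.

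The direction of the KO differences was mixed. KO means were higher for 52 of 80 members in the Glu-CB1 basal, 42 of 80 in the Glu-CB1 open field, 37 of 80 in the GABA-CB1 basal and 34 of 79 in the GABA-CB1 open field comparison. The median log2 fold changes over the members were 0.020, 0.0068, -0.015 and -0.0061, against -0.00091, -0.0025, -0.00054 and 0.0017 over all genes. A fold change beyond 0.5 on the log2 scale occurred for 1 member in the Glu-CB1 basal comparison and for none in the other 3. The median SE over the members was 0.097, 0.081, 0.076 and 0.088. A difference in a single subunit as large as its SE, or several times its SE, could thus go undetected. In the Glu-CB1 open field comparison, Kcnn2 (log2 fold change 0.18) and Kcnip3 (0.19) were not called by edgeR (adjusted p 0.109 and 0.127).

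Kcnip3 (KChIP3, also called DREAM or calsenilin), a calcium sensor that binds Kv4 channels and also acts as a transcriptional repressor, fell in GABA-CB1-KO mice. The gene lies at chr2:127456498-127522094 (mm10, minus strand) and its mean level of 23.9 CPM per kb placed it among the more abundant members. Basal levels ran from 80.4 to 92.0 CPM (median 86.6) in 6 GABA-CB1-WT libraries and from 69.7 to 78.1 CPM (median 72.8) in 6 GABA-CB1-KO libraries. Every KO library lay below every CB1-WT library. This gave a log2 fold change of -0.24 (SE 0.037, adjusted p 0.0128). Without the 14 low-Xkr4 libraries it was -0.21 and no longer past the threshold (adjusted p 0.111). With the range of the label numbers as a covariate it was likewise -0.21 (adjusted p 0.264). Number range and genotype were not balanced here. The lowest range held 2 KO and 4 CB1-WT libraries, the middle range 3 and 0, and the highest range 1 and 2.

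After open field exposure the GABA-CB1 difference in Kcnip3 did not pass the test. The 7 GABA-CB1-WT libraries ran from 76.6 to 92.2 CPM with a median of 81.3. The 5 GABA-CB1-KO libraries had 101, 71.6, 69.5, 68.5 and 71.7 CPM. Thus 4 KO libraries lay below all CB1-WT libraries and replicate 1 lay above all of them. The log2 fold change was -0.12 (SE 0.087, adjusted p 0.572), and -0.23 without that replicate (adjusted p 0.132).

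In the Glu-CB1 line the KO difference in Kcnip3 was of the opposite sign. Basal levels were 80.5, 93.3, 92.1, 88.3 and 81.0 CPM in the 5 Glu-CB1-WT libraries, and ran from 87.4 to 107 CPM (median 96.7) in the 7 Glu-CB1-KO libraries, so that the groups overlapped. After open field exposure the 5 Glu-CB1-WT libraries had 85.4, 75.7, 86.4, 80.9 and 79.6 CPM and the 7 Glu-CB1-KO libraries 85.4 to 99.5 CPM (median 91.7). These groups overlapped at their edges only. The log2 fold changes of 0.14 (SE 0.056, adjusted p 0.999) and 0.19 (SE 0.045, adjusted p 0.127) did not pass the test in either state alone. Over both states, however, Kcnip3 rose in Glu-CB1-KO mice (log2 fold change 0.16, SE 0.036, adjusted p 0.0445), the only member called of 80 against 0.257% of all genes, with 11 members at an unadjusted p under 0.05, or 13.75% against 7.34%. This call was lost without the 14 low-Xkr4 libraries (0.17, adjusted p 0.179).

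The difference between the lines was tested directly. In the basal state the KO effect on Kcnip3, as a log2 fold change, was 0.38 higher for Glu-CB1 than for GABA-CB1 mice (SE 0.068, adjusted p 0.00733), the only member called of 80, against 0.279% of all genes, and 7 members had an unadjusted p under 0.05, or 8.75% against 8.56%. DESeq2 called it alone as well, against 0.514%. Without the 14 low-Xkr4 libraries the difference was 0.36 (adjusted p 0.0546), and with the number range as a covariate it was also 0.36 (adjusted p 0.105). After open field exposure it was 0.30 (SE 0.101, adjusted p 0.221), and 0.42 without GABA-CB1-KO replicate 1 (adjusted p 0.00221). Over both states of the GABA-CB1 line the log2 fold change was -0.18 (SE 0.049, adjusted p 0.141), and 0 of 80 members were called there, against 0.355% of all genes. In that comparison 6 members had an unadjusted p under 0.05, or 7.5% against 8.27%, and DESeq2 called 1 (Kcns3), against 0.856%. The genotype effect on Kcnip3 did not differ between states past the threshold in either line (adjusted p 1 and 0.56).

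Kcnip1 (KChIP1), a related Kv4 partner found mainly in interneurons, had values of the same signs. It averaged 17.1 ± 1.4 CPM (SD, n = 5) in Glu-CB1-WT and 20.1 ± 1.4 CPM (SD, n = 7) in Glu-CB1-KO basal libraries, with a log2 fold change of 0.24 (SE 0.064, adjusted p 0.999). In the GABA-CB1 open field state it averaged 19.5 ± 1.3 CPM (SD, n = 7) in CB1-WT and 17.02 ± 1.07 CPM (SD, n = 5) in KO libraries, with a log2 fold change of -0.20 (SE 0.057, adjusted p 0.235). Neither difference passed the test, nor did the difference between lines in the basal (0.33, adjusted p 0.225) or the open field state (0.35, adjusted p 0.113). Of the other KChIPs, Kcnip2 had a log2 fold change of 0.14 in the GABA-CB1 open field comparison (SE 0.049, adjusted p 0.279).

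Kcnn2 (SK2), which is gated by calmodulin and produces the afterhyperpolarisation that follows bursts in pyramidal neurons, also had KO differences of opposite sign in the lines. After open field exposure the 5 Glu-CB1-WT libraries had 71.7, 66.8, 65.8, 67.0 and 68.2 CPM and the 7 Glu-CB1-KO libraries 72.4 to 84.8 CPM (median 76.0). All KO libraries lay above all CB1-WT libraries. Among GABA-CB1 mice the 7 CB1-WT libraries ran from 66.2 to 75.5 CPM (median 71.8) and the 5 KO libraries had 64.0, 65.1, 64.97, 63.2 and 59.9 CPM. Here all KO libraries lay below all CB1-WT libraries.

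By edgeR, the log2 fold changes of Kcnn2 were 0.18 (SE 0.040, adjusted p 0.109) for Glu-CB1-KO and -0.17 (SE 0.037, adjusted p 0.145) for GABA-CB1-KO mice, neither past the threshold. DESeq2 called both (adjusted p 0.00885 and 0.00489). The lines differed past the threshold, by 0.35 on the log2 scale (SE 0.054, adjusted p 0.00152), the only one of 80 members called, against 0.568% of all genes, and 16 members had an unadjusted p under 0.05, or 20% against 10.8%. It stayed past the threshold without the 14 low-Xkr4 libraries and with every single library left out in turn. In the basal state the log2 fold changes were 0.10 (adjusted p 0.999) and -0.07 (adjusted p 0.772), while the lines differed by 0.17 (SE 0.088, adjusted p 0.622).

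Some markers of somatostatin interneurons moved in the same comparisons. Of 8 such markers 7 were tested. In Glu-CB1-KO mice after open field exposure 5 were higher and 2 lower, with 2 DEGs, both higher, against 0.146% of all genes. Over both states of that line 6 were higher and 1 lower, with 3 DEGs, all higher, against 0.145%. In the GABA-CB1 line 1 was higher and 6 lower in KO mice in the basal state, with 1 DEG, which was lower, against 0.206%. The open field state had 2 higher and 5 lower with 0 DEGs. Over both states 1 was higher and 6 lower, with 2 DEGs, both lower, against 0.25%. The KO effect was higher in the Glu-CB1 than in the GABA-CB1 line for 5 of 7 in the basal state, 2 of them past the threshold, against 0.208% of all genes, and for 4 of 7 after open field exposure, 3 of them past it, against 0.326%. Their summed level was 403 to 506 CPM in Glu-CB1-WT and 456 to 528 in Glu-CB1-KO basal libraries, and 388 to 487 and 441 to 540 CPM after open field exposure. In the GABA-CB1 line it was 425.7 to 491.2 CPM in CB1-WT and 413.7 to 465.9 in KO basal libraries, and 422 to 470 and 395 to 454 CPM after open field exposure. The groups overlapped in each case, and Sst itself was never below 69.5 CPM. Several other marker lists also had most markers on 1 side in the comparisons in which edgeR called Kcnip3 or Kcnn2. In the open field difference between lines, the KO effect was higher in the Glu-CB1 line for 7 of 8 markers of other interneurons (median log2 difference 0.20, 1 called) and lower for 7 of 8 markers of CA3 and CA2 pyramidal cells (median -0.24, 0 called). There, 1 marker each of the thalamus (lower) and of the subiculum and cortex (higher) was also called. In this test 0.568% of all genes were called, and 0.326% were called higher. The KO effect was lower in the Glu-CB1 line for all 8 oligodendrocyte, all 8 choroid plexus and 7 of 8 microglia markers (medians -0.11, -2.58 and -0.11, 0 called). In the basal difference the KO effect was higher for all 8 dentate granule cell markers (median 0.31, 0 called) and all 8 markers of the subiculum and cortex (median 0.13, 0 called). It was also higher for all 8 microglia and all 8 choroid plexus markers (medians 0.14 and 2.34, 0 called). For all 8 oligodendrocyte markers it was lower (median -0.11, 0 called). In the GABA-CB1 basal comparison 7 of 8 dentate granule cell markers were lower in KO mice (median -0.19, 0 called). All 8 choroid plexus, all 8 microglia and 7 of 8 astrocyte markers were lower too (medians -1.44, -0.053 and -0.037, 0 called). All 8 oligodendrocyte markers were higher (median 0.15, 0 called). Of the CA3 and CA2 markers 4 of 8 were lower, with 1 called, against 0.206% of all genes called lower. Over both states of the Glu-CB1 line, all 8 markers of other interneurons and 7 of 8 CA1 markers were higher in KO mice (medians 0.084 and 0.13, 0 called). The part of these markers in the values of Kcnip3 and Kcnn2 was not tested.

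**Figure D3:**
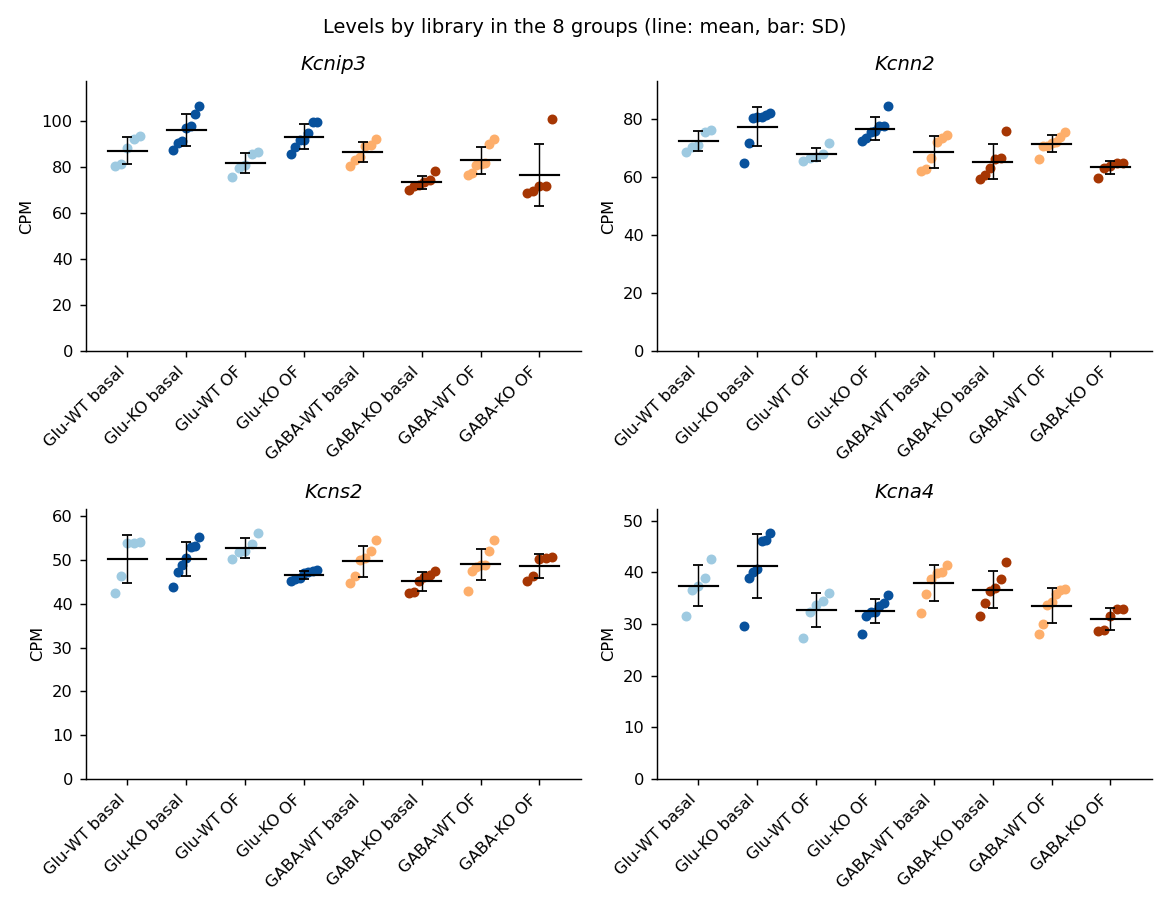
Level in CPM of Kcnip3, Kcnn2, Kcns2 and Kcna4 in each library of the 8 groups (OF, open field), with the group mean as a line and the SD as a bar. Kcnip3 lies lower in GABA-CB1-KO than in GABA-CB1-WT basal libraries without overlap, Kcnn2 differs in opposite directions in the lines after open field exposure, and Kcna4 lies lower after open field exposure with overlap.

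Silent Kv subunits do not form channels alone but join Kv2 subunits and change their gating. One of them, Kcns2 (chr15:34837355-34843407, plus strand), fell in Glu-CB1-KO mice after open field exposure. The 5 Glu-CB1-WT libraries had 53.6, 56.1, 51.9, 52.0 and 50.2 CPM, and the 7 Glu-CB1-KO libraries ran from 45.2 to 47.6 CPM (median 46.96), all below the CB1-WT libraries. The difference was -0.18 on the log2 scale (SE 0.035, adjusted p 0.0466). This call lay close to the threshold, since leaving out any 1 of the 12 libraries gave an adjusted p of 0.0578 to 0.112, and leaving out the low-Xkr4 libraries gave 0.262. The same line had a basal log2 fold change of 0.0025 (adjusted p 0.999). The GABA-CB1 line had -0.14 in the basal state (adjusted p 0.447) and -0.012 after open field exposure (adjusted p 0.944). In Glu-CB1-KO open field mice all 8 dentate granule cell, oligodendrocyte and microglia markers were lower (medians -0.041, -0.11 and -0.058, 0 called). For CA1 and other interneurons 7 of 8 markers were higher (medians 0.15 and 0.12, 0 called). Of the CA3 and CA2 markers 6 of 8 were lower, with 1 called, against 0.272% of all genes. Also called were 1 thalamus (lower) and 1 subiculum and cortex marker (higher). The part of these markers in Kcns2 was not tested.

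Kcns3, a silent subunit known from fast-spiking interneurons, was lower in every GABA-CB1-KO than in any GABA-CB1-WT library after open field exposure. The 7 CB1-WT libraries ran from 13.98 to 16.29 CPM (median 14.65), and the 5 KO libraries had 13.27, 13.77, 12.98, 12.55 and 12.11 CPM. The log2 fold change was -0.22 (SE 0.055, adjusted p 0.191 by edgeR and 0.0434 by DESeq2). Over both states it was -0.17 (SE 0.042, adjusted p 0.0799). The Glu-CB1 line had 0.034 after open field exposure (adjusted p 0.999). The lines differed by 0.25, which did not pass the test (adjusted p 0.3). Of the 8 markers of other interneurons, 6 were lower and 2 higher in GABA-CB1-KO open field mice (median -0.084, 0 called). Over both states of that line 7 were lower and 1 higher (median -0.053). There 1 was a DEG (Pvalb, lower), against 0.25% of all genes called lower. The part of these markers in the values of Kcns3 was not tested.

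Counted over the 4 comparisons, few members had KO libraries that were all on one side of the CB1-WT libraries. There were 0 of 80 in the Glu-CB1 basal comparison, against 0.192% of all genes. In the Glu-CB1 open field comparison there were 2 (Kcns2 and Kcnn2), against 0.743%, and in the GABA-CB1 basal comparison 1 (Kcnip3), against 0.709%. The GABA-CB1 open field comparison held 2 of 79 (Kcns3 and Kcnn2), against 0.987%. Counts of 0 to 2 are small numbers from which no share can be read closely.

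Among pore-forming and KCNE subunits, none passed the edgeR test in the 4 KO comparisons. Kcna2, an axonal Kv1 subunit, averaged 308 ± 15 CPM (SD, n = 7) in GABA-CB1-WT and 279 ± 9.5 CPM (SD, n = 5) in GABA-CB1-KO open field libraries (log2 fold change -0.15, SE 0.040, adjusted p 0.23). Kcnq5, an M-type subunit, averaged 178 ± 12 CPM (SD, n = 6) in GABA-CB1-WT and 197 ± 6.0 CPM (SD, n = 6) in GABA-CB1-KO basal libraries (0.15, SE 0.043, adjusted p 0.299). The mechanosensitive K2P channel Kcnk4 (TRAAK) averaged 8.55 ± 0.82 CPM (SD, n = 6) and 7.44 ± 0.13 CPM (SD, n = 6) in the same groups (-0.20, SE 0.063, adjusted p 0.372). Kcne1l averaged 2.82 ± 0.23 CPM (SD, n = 5) in Glu-CB1-WT and 3.28 ± 0.45 CPM (SD, n = 7) in Glu-CB1-KO basal libraries (0.22, SE 0.107, adjusted p 0.999). In each of these pairs the libraries of the groups overlapped.

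Set side by side, the KO differences of the lines were little correlated over the members. For basal mice, 37 of 80 members had the same sign in both lines (Pearson r = 0.0113 across members), and after open field exposure 36 of 79 (r = 0.146). Members are not independent replicates, and no test was run on these values. The same values over all genes are not given here. Most of these differences were small against their SEs, so a low correlation says little about the lines. No member changed its KO effect between states past the threshold, with 0 of 80 called in the Glu-CB1 line (against 0% of all genes) and 0 of 80 in the GABA-CB1 line (against 0%). An unadjusted p under 0.05 was found for 3 members in the Glu-CB1 line, or 3.75% against 2.47% of all genes, and for 7 in the GABA-CB1 line, or 8.75% against 14.6%. DESeq2 called 0, against 0%, and 1 (Kcnab2), against 0.74% of the genes to which it gave an adjusted p. For Kcnab2 the KO effect in the GABA-CB1 line was 0.18 higher on the log2 scale after open field exposure than in the basal state (adjusted p 0.201 by edgeR).

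**Figure D4:**
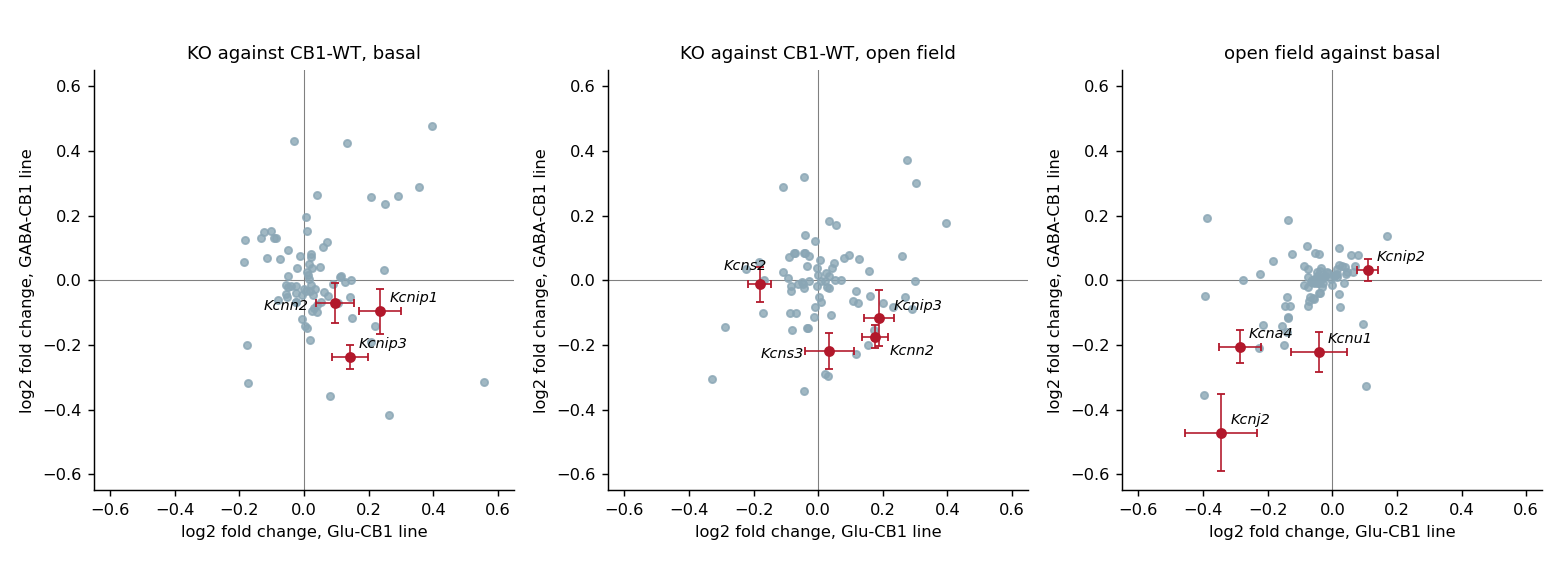
Log2 fold change of each member in the Glu-CB1 line (horizontal axis) against the GABA-CB1 line (vertical axis) for KO against CB1-WT in the basal state, KO against CB1-WT after open field exposure, and open field against basal, with named members in red and bars of 1 SE. Kcnip3 and Kcnn2 lie at lower right in both KO panels, and Kcna4 and Kcnj2 lie at lower left in the open field panel.

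The second question was how the family responded to open field exposure, with both genotypes of a line fitted together. In the Glu-CB1 line 1 of 80 members was a DEG, against 1.83% of all genes, and 14 had an unadjusted p under 0.05, or 17.5% against 14% of all genes. In the GABA-CB1 line 1 of 80 was a DEG, against 0.966% of all genes, and 9 had an unadjusted p under 0.05, or 11.25% against 12.1%. DESeq2 called 2 members in each line, Kcnip2 and Kcna4 in the Glu-CB1 line and Kcnj2 and Kcna4 in the GABA-CB1 line. It called 3.37% and 1.93% of the genes to which it gave an adjusted p. The same gene, Kcna4, was the edgeR call in both lines. Of 10 immediate-early genes 8 were higher DEGs in each line. Of all genes, 200 of 15178 were higher DEGs in the Glu-CB1 line and 116 of 15216 in the GABA-CB1 line. The summed level of the 10 genes was 204 to 379 CPM in basal and 298 to 704 CPM in open field libraries. These mice had been chosen partly on their neuronal activity.

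Kcna4 is the pore subunit of the presynaptic and axonal A-type (Kv1) current, and it fell after open field exposure. It is encoded at chr2:107290589-107298504 (plus strand). In the Glu-CB1 line the 5 CB1-WT libraries had 37.3, 36.6, 31.6, 42.7 and 38.97 CPM in the basal state and 35.95, 27.2, 33.6, 34.5 and 32.4 CPM after open field exposure. The 7 KO libraries ran from 29.7 to 47.6 CPM (median 40.7) in the basal state and from 28.1 to 35.5 CPM (median 32.3) after it. Open field libraries lay lower in both genotypes, with overlap. The log2 difference between states was -0.29 (SE 0.065, adjusted p 0.0209). It stayed past the threshold with any 1 of the 24 libraries left out and under each of the 9 other settings.

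In the GABA-CB1 line the 6 CB1-WT basal libraries ran from 32.1 to 41.4 CPM (median 39.2) and the 7 CB1-WT open field libraries from 28.1 to 36.7 CPM (median 34.2). The 6 KO basal libraries ran from 31.6 to 42.05 CPM (median 36.7), and the 5 KO open field libraries had 31.6, 32.9, 28.7, 28.8 and 32.96 CPM. Levels were again lower in both genotypes and overlapped. The log2 fold change was -0.21 (SE 0.051, adjusted p 0.0475). This call was close to the threshold, with only 4 of the 24 fits that leave out 1 library keeping it, and an adjusted p of 0.169 without the low-Xkr4 libraries. All 8 vascular markers were lower after open field exposure in both lines (medians -0.096 and -0.074, 0 called). Dentate granule cell markers were lower for 7 of 8 in the Glu-CB1 and all 8 in the GABA-CB1 line (medians -0.083 and -0.13, 0 called). In the GABA-CB1 line 7 of 8 markers of other interneurons were higher (median 0.017, 0 called). The part of these markers in the values of Kcna4 was not tested.

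Kcnj2, a strong inward rectifier that holds the membrane near rest, had the lowest log2 fold change of the 80 members in the open field comparison of the GABA-CB1 line. The 6 CB1-WT basal libraries ran from 9.75 to 20.5 CPM (median 13.3) and the 7 CB1-WT open field libraries from 6.84 to 11.6 CPM (median 9.20). The 6 KO basal libraries ran from 7.88 to 13.4 CPM (median 11.5), and the 5 KO open field libraries had 10.0, 7.73, 8.66, 10.1 and 10.3 CPM. The states overlapped in each genotype. The log2 fold change was -0.47 (SE 0.120, adjusted p 0.0552 by edgeR and 0.00982 by DESeq2).

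In the Glu-CB1 line the 5 CB1-WT libraries had 14.2, 8.87, 8.25, 13.01 and 11.1 CPM of Kcnj2 in the basal state and 10.5, 9.50, 11.6, 8.27 and 10.1 CPM after open field exposure. The 7 KO libraries ran from 9.86 to 20.3 CPM (median 11.9) and from 8.02 to 12.2 CPM (median 9.11). The states overlapped here too. The log2 fold change was -0.34 (SE 0.111, adjusted p 0.116). The highest Kcnj2 values of all were in GABA-CB1-WT basal replicates 3 and 4 and Glu-CB1-KO basal replicate 2. The summed level of the 8 dentate granule cell markers was 360, 263 and 356 CPM in these libraries, in that order. The part of these markers in the values of Kcnj2 was not tested. Of the other members with the smallest p values, Kcnip2 had 0.11 on the log2 scale for Glu-CB1 mice (SE 0.033, adjusted p 0.0928), from 230 ± 24 CPM (SD, n = 5) to 247 ± 7.1 CPM (SD, n = 5) in CB1-WT mice. Kcnu1, a pH-gated relative of the BK pore, had -0.22 in the GABA-CB1 line (SE 0.062, adjusted p 0.0863), from 3.76 ± 0.34 CPM (SD, n = 6) to 3.01 ± 0.20 CPM (SD, n = 7) in CB1-WT mice.

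Among Glu-CB1 mice, 57 of 80 members had lower means after open field exposure, with a median log2 fold change of -0.045, against -0.0056 over all genes, of which 45.8% were higher. Lower values prevailed among the silent Kv subunits (8 of 9), the Kv1 subunits (5 of 6) and the BK, SK and Slack channels (8 of 10). In the GABA-CB1 line, however, 37 of 80 were lower, with a median of 0.0040, and the same classes had 4 of 9, 1 of 6 and 4 of 10 lower. Over both lines 50 of 80 members had the same sign, 32 lower and 18 higher in both. This was 62.5% of the members (r = 0.382 across members), below the 68.6% of 15133 genes tested in both lines (r = 0.509).

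An unadjusted p under 0.05 in both lines was found for 8 members, which were 57.1% of the 14 in the Glu-CB1 line and 88.9% of the 9 in the GABA-CB1 line. Over all genes tested in both lines, 847 genes had such a p in both, or 40.01% of 2117 and 45.96% of 1843. The 8 members were Kcna4, Kcnj2, Kcnj3, Kcnj4, Kcnh6, Kcnv1, Kcnk10 and Kcnh1, of which 5 are named only because they are in this count. Lower values in both lines were found for 7 of them and higher values for Kcnh1 alone, with log2 fold changes of 0.08 in each line. Of the 847 genes, 265 were lower and 581 higher in both lines. Apart from Kcna4 none of the 8 passed the adjusted threshold in edgeR.

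Promoter sequence was read for Kcna4 and Kcnj2, which had lower values after open field exposure in both lines, and for Kcnip3. Of 80 members 57 had a promoter in the RefSeq table (GRCm38.p6), with 81 transcription starts, and the 250 bases before each start were searched on both strands. The full cAMP response element (TGACGTCA) was in 0 of 81 member promoters and in 1.55% of all 32851. Its first 5 letters (TGACG, which the full element also contains) were in 12 of 81 (14.8%), against 17.8% of all. The EGR motif (GCGTGGGCG) was in 0 of 81, against 0.536%. The AP-1 motif (TGACTCA) was in 2 of 81 (2.47%, in Kcnip3 and Kcnk2), against 4.46%. A match is a description of the letters only. The promoters of Kcna4 (chr2:107290339-107290588, plus strand) and Kcnj2 (chr11:111065914-111066163, plus strand) held none of these motifs. The first of 3 Kcnip3 starts (chr2:127522095-127522344, minus strand) held the AP-1 motif 122 bases before the start, shown in capitals.
Kcna4: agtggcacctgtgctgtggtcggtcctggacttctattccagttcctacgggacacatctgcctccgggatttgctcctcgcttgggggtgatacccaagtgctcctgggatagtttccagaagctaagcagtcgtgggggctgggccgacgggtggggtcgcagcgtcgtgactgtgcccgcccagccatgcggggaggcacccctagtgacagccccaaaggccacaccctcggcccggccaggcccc
Kcnj2: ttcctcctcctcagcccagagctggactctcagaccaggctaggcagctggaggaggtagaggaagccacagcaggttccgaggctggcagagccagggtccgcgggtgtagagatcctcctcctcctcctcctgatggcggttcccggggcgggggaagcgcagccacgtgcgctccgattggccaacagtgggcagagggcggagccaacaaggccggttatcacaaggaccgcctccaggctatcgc
Kcnip3: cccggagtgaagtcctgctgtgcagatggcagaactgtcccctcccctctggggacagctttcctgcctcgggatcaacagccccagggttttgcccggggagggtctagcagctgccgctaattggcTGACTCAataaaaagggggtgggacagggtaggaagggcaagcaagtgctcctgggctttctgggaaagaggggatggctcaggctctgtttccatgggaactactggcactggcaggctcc

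GIRK channels are opened directly by G protein beta-gamma subunits released from Gi/o-coupled receptors such as CB1. Kcnj3 (GIRK1) was the most abundant at 41.6 CPM per kb, followed by Kcnj9 (GIRK3) at 20.7 and Kcnj6 (GIRK2) at 9.12 CPM per kb. Kcnj5 (GIRK4), the cardiac partner of Kcnj3, was close to the detection limit at 0.0832 CPM per kb. None of the 4 was a DEG in the 4 KO or the 2 open field comparisons by edgeR or DESeq2, and Kcnj3 alone had an unadjusted p under 0.05, in both open field comparisons.

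For Kcnj3 the 8 group means lay between 200 and 226 CPM. In the Glu-CB1 line KO and CB1-WT libraries overlapped in part, with the highest values in KO libraries and medians of 224 and 226 CPM in the basal state and 218 and 210 CPM after open field exposure. The GABA-CB1 medians were 224 CPM in KO and 215 in CB1-WT basal libraries. After open field exposure the 5 GABA-CB1-KO libraries lay between 181 and 219 CPM and the 7 GABA-CB1-WT libraries between 186 and 225 CPM, again with overlap. The largest KO difference was in this last comparison, at -0.11 on the log2 scale (SE 0.052, adjusted p 0.398). Open field against basal, the log2 differences were -0.075 for Glu-CB1 mice (SE 0.030, adjusted p 0.224) and -0.078 for GABA-CB1 mice (SE 0.036, adjusted p 0.383).

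Group means of Kcnj6 lay between 59.8 and 68.3 CPM and those of Kcnj9 between 64.6 and 71.1 CPM. The KO differences of Kcnj6 ran from -0.089 to 0.074 on the log2 scale, with SEs of 0.098 to 0.118, and its libraries were spread by the Xkr4 split, with medians of 51.5 and 68.6 CPM. Those of Kcnj9 ran from -0.020 to 0.049, with SEs of 0.069 to 0.093. Kcnj5 had group means of 0.318 to 0.426 CPM, and at this depth its SEs of 0.248 to 0.354 allowed no difference of the sizes seen here to be detected. Across the family the GIRK subunits did not stand out from the other classes.

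**Figure D5:**
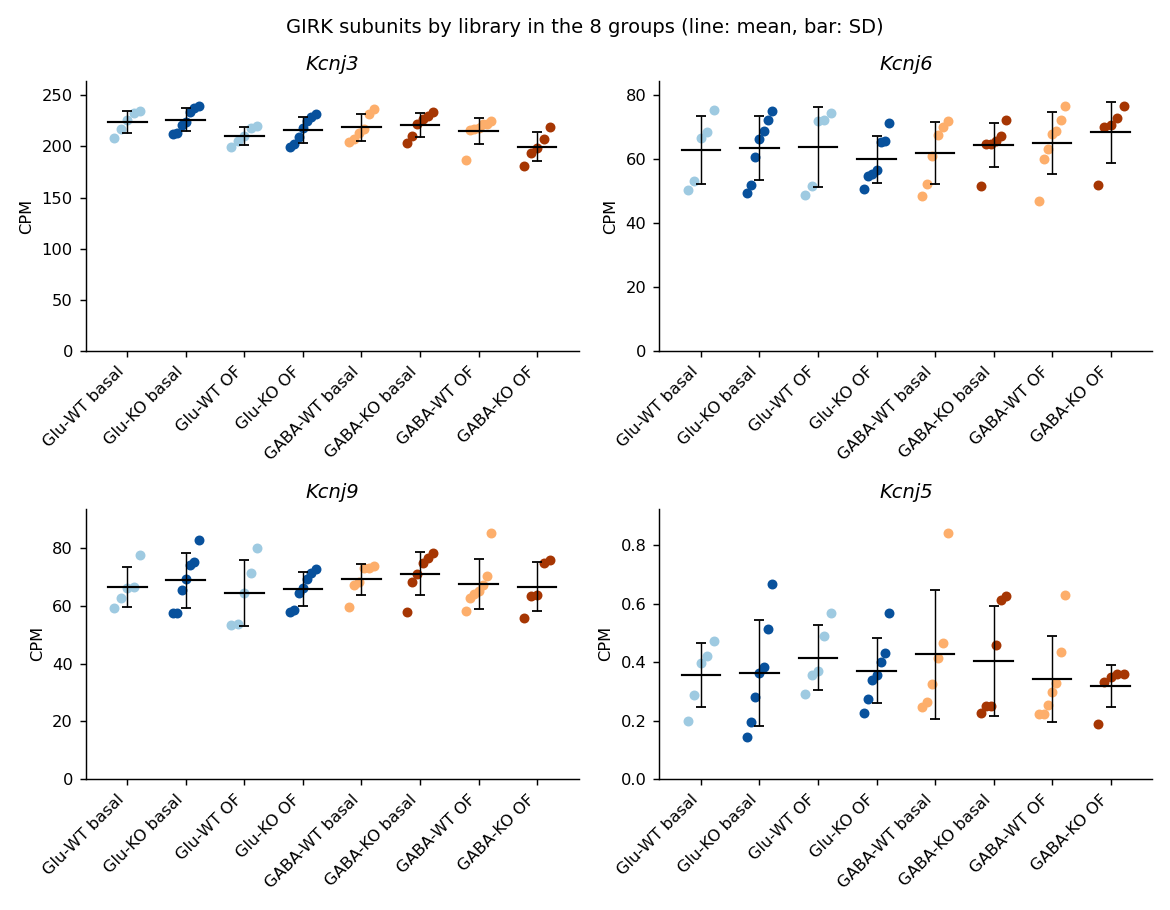
Level in CPM of the 4 GIRK subunits Kcnj3, Kcnj6, Kcnj9 and Kcnj5 in each library of the 8 groups (OF, open field), with the group mean as a line and the SD as a bar. Kcnj3 group means lie between 200 and 226 CPM, and the libraries of KO and CB1-WT groups overlap for all 4 genes.

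Proteins that bind or regulate these channels were also examined, among them the Kv4 partners of the DPP family, the Kv1 clustering proteins, calmodulin genes, scaffolds and G protein subunits. Of 26 listed partners 24 were tested in each comparison, and 0 were called in any of the 12 tests. An unadjusted p under 0.05 was found for 0 of 24 in the Glu-CB1 basal comparison, the fewest, against 3.57% of all genes. The most were 5 of 24 in the open field difference between lines, against 10.8%. DESeq2 called 2 in the Glu-CB1 open field comparison, against 0.816% of all genes. They were Cntnap2, which clusters Kv1 channels at the axon, and Calm3, a calmodulin gene. DESeq2 also called 1 over both states of the Glu-CB1 line (Cntnap2, against 0.698%) and 1 in the open field difference between lines (Calm3, against 1.33%). The other 9 tests had 0. Both genes are named only because they are in these counts. The smallest adjusted p by edgeR was 0.0585.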

How the data were processed

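Hippocampal CA tissue of 48 mice was sequenced as single reads after cDNA amplification (NuGEN Ovation). According to the study's methods and the submitters' processing notes, the authors trimmed reads with bbduk, checked them with FastQC and MultiQC 1.8, aligned them to mm10 with STAR 2.6.0a and ran featureCounts 1.6.2 with its strand option to obtain gene counts. The deposited values used here are raw counts per gene and library. Amplified reads carry no molecular identifiers, so counts are not independent molecules.

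Each comparison was fitted over all genes with the quasi-likelihood test of edgeR 4.0.16 (TMM scaling, filterByExpr, R 4.3.3, limma 3.58.1) on the deposited counts, with Benjamini-Hochberg adjustment over all genes tested and a threshold of 0.05. KO was compared with CB1-WT in each line and state (genotype as the only term). State and genotype were fitted together within a line, then with their interaction, and the KO effect was compared between lines by an interaction within each state, which gave 12 tests. The SE was computed from the fold change and its F statistic. The scripts were tested on simulated data. Group sizes follow the labels. Each library was labelled as a separate mouse of its group, and replicates differed by more than sampling noise. Library totals of 25892654 to 34091080 counts limit the precision of members near 1 CPM.

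Members and gene lists were chosen with earlier results of these data known. Named are members called in any test, Kcnn2, the 3 members with the smallest p in each KO and open field comparison, the 10 most abundant members and the first of each class, the GIRK subunits, members without overlap between groups, and called partners. A few members this rule names are not reported here. Partners, immediate-early genes and cell type markers are given as counts or summed levels.

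Alternatives were DESeq2 1.42.0, its size factors in edgeR, no filter, and a filter of 10 counts in every library. Others were all 48 libraries in 1 fit, a covariate for the range of the label numbers, and a block for the replicate number. Every library was also left out in turn. Shares given beside DESeq2 calls are of the genes to which it gave an adjusted p. After the data had been seen, Xkr4 as a covariate and leaving out the 14 libraries under 6 CPM of Xkr4 were added. Promoters came from RefSeq (GRCm38.p6) and GC content from the GENCODE transcripts. Protein sequences were not used here.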

Additional observations from a re-analysis of the deposited data

Results flagged for a closer look

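Among 136 groups of values from 17 followed members, 13 (9.56%) held 1 library far from the others of its group, where chance gives about 1 in 20. Of these, GABA-CB1-KO open field replicate 1 had 2. It had 101 CPM of Kcnip3, against 71.7 CPM for the next library, and 6.05 CPM of Kcne1l, against 3.36 CPM. This is the library that decided whether Kcnip3 was called over both states of the GABA-CB1 line, since without it the log2 fold change was -0.23 (adjusted p 8.32e-05). In the same group, Kcnj5 was low in replicate 2 (0.189 CPM), Kcnj6 in replicate 3 (52.0 CPM) and Kcnk4 in replicate 4 (7.01 CPM). Kcnj6 was also low in GABA-CB1-KO basal replicate 2 (51.4 CPM). Both of these low Kcnj6 libraries were among the 14 with low Xkr4, with which Kcnj6 varied.

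Kcnj3 was low in GABA-CB1-WT open field replicate 1 (186 CPM) and Kcnj5 high in GABA-CB1-WT basal replicate 2 (0.841 CPM). In the Glu-CB1-KO open field group, Kcnj2 was high in replicate 2 (12.2 CPM) and Kcnn2 in replicate 5 (84.8 CPM). Kcnu1 stood apart in 3 basal groups, low in Glu-CB1-WT replicate 2 (3.00 CPM) and GABA-CB1-WT replicate 2 (3.11 CPM) and high in GABA-CB1-KO replicate 2 (3.85 CPM).

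The effect of CB1 deletion differed between the lines by a test of the difference for 2 followed members. For Kcnip3 the effect in the basal state as a log2 fold change was 0.38 higher for Glu-CB1 mice (adjusted p 0.00733). For Kcnn2 the effect after open field exposure was 0.35 higher for Glu-CB1 mice (adjusted p 0.00152).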

How the results depend on the processing

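Over 777 refits of the followed fold changes, 0 reversed their direction, 686 kept their side of the threshold, 67 lost it and 24 gained it. Only a fold change called at first can lose it, and most of those followed were not. Kcna4 for open field against basal in the GABA-CB1 line kept its call in 5 of 9 alternatives and 4 of 24 fits without 1 library. The same counts were 5 of 9 and 0 of 12 for Kcns2 in the Glu-CB1 open field comparison. They were 7 of 9 and 7 of 24 for Kcnip3 over both states of the Glu-CB1 line. Kcnip3 in the GABA-CB1 basal comparison and in the basal difference kept 5 of 9. Kcnn2 in the open field difference between lines stayed past the threshold in all 9 alternatives and all 24 fits without 1 library. Kcna4 in the open field comparison of the Glu-CB1 line did so too.

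DESeq2 in place of edgeR called 4 members in the Glu-CB1 open field comparison, 3 in the GABA-CB1 open field comparison, 2 in each open field against basal comparison, 3 over both states of the Glu-CB1 line, 1 over both states of the GABA-CB1 line, 1 for genotype by state in the GABA-CB1 line and 3 in the open field difference between lines. Over these 8 comparisons DESeq2 called 0.698% to 3.37% of the genes to which it gave an adjusted p. No filter gave 0 in the Glu-CB1 open field comparison and 0 for open field against basal in the GABA-CB1 line. One fit of all 48 libraries gave 0 in the Glu-CB1 open field comparison, 0 in the GABA-CB1 basal comparison, 0 over both states of the Glu-CB1 line and 0 in the basal difference between lines. The number range as a covariate gave 2 in the Glu-CB1 open field comparison. It gave 0 in the GABA-CB1 basal comparison and 0 in the basal difference between lines. Omitting the 14 low-Xkr4 libraries gave 0 in these 3 comparisons, 0 over both states of the Glu-CB1 line, 0 for open field against basal in the GABA-CB1 line and 2 (Kcnv1 and Kcna4) in the Glu-CB1 line. This leaves fewer libraries. Xkr4 as a covariate gave 2 (Kcnj2 and Kcna4) for open field against basal in the GABA-CB1 line and 1 (Kcna2) over both states of that line. The cause of these shifts was not tested.

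Replicate numbers did not pair the libraries, with correlations of deviations between -0.34 and 0.32. With the replicate block, 0 members were called in the Glu-CB1 open field and GABA-CB1 basal comparisons, 2 over both states of the Glu-CB1 line, 0 for open field against basal in the GABA-CB1 line and 0 in the basal difference between lines.

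With each library left out in turn, the count was 0 throughout in the Glu-CB1 open field comparison, 1 to 2 for open field against basal in the Glu-CB1 line and 0 to 4 in the GABA-CB1 line (4 without GABA-CB1-KO basal replicate 5). It was 0 to 2 over both states of the Glu-CB1 line, where Kcnip3 was called in 7 of 24 fits, 0 to 1 over both states of the GABA-CB1 line (1 without GABA-CB1-WT basal replicate 3 or GABA-CB1-KO open field replicate 1) and 1 to 2 in the open field difference between lines (2 without Glu-CB1-KO open field replicate 6 or GABA-CB1-KO open field replicate 1). Kcnip3 stayed called in all 12 such fits of the GABA-CB1 basal comparison and all 24 of the basal difference between lines. Calls over all genes moved too, from 149 to 436 and 64 to 268 for open field against basal in the Glu-CB1 and GABA-CB1 lines. They ranged from 25 to 100 and 37 to 141 over both states of these lines. The ranges were 14 to 48 in the Glu-CB1 open field comparison, 17 to 34 in the GABA-CB1 basal comparison, and 29 to 47 and 50 to 112 in the basal and open field differences.

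Over all genes, the number called over the 9 alternatives ranged from 3 to 123 in the Glu-CB1 open field comparison (41 as reported). It was 7 to 110 in the GABA-CB1 basal (37), 1 to 152 in the GABA-CB1 open field (3) and 2 to 12 in the Glu-CB1 basal comparison (3). For open field against basal it was 229 to 492 in the Glu-CB1 line (277) and 15 to 270 in the GABA-CB1 line (147).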
